A study of Homo sapiens with 15 samples.

Results

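The loci of 10 secreted inflammatory mediators were examined in ATAC-seq peak lists of human renal epithelial cells: IL6, IL11, LIF, IL7, IL1A, IL1B, CXCL8, CXCL1, CXCL2 and CCL2. They were chosen by name, and each locus was the gene body of GENCODE v44 plus 20 kb on each side, 1 of 19970 such windows of protein-coding genes. ATAC-seq marks open chromatin by the insertion of sequencing adapters by the Tn5 transposase, and a peak is a stretch where insertions pile up above the local background. RPTEC cells, proximal tubule epithelial cells kept under G418 selection for hTERT, were compared with and without SETD2, the methyltransferase that places the third methyl group on lysine 36 of histone H3. There were 3 libraries in each of 5 groups. WT cells had intact SETD2. KO1 and KO2 were SETD2 knockout clones made with CRISPR, and Rescue1 and Rescue2 were clones of knockout cells that expressed tagged full-length SETD2 from a lentivirus under blasticidin selection. The study's methods do not name the KO clone that gave rise to the rescue clones. Rescue was compared with the mean of KO1 and KO2, so the clone of origin and the rescue cannot be told apart. All groups shared the cell line and hTERT. Each KO or rescue group was 1 clone, so within a group the clone and the genotype cannot be told apart, and 2 clones stand for each state. In bulk libraries, a site open in more cells and a site more open in each cell cannot be told apart either.

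IL-6, IL-11 and LIF signal through receptor complexes that share the subunit gp130, encoded by IL6ST. IL-7 supports lymphocyte survival, and IL-1α and IL-1β are early alarm cytokines that act through IL1R1. CXCL8, CXCL1 and CXCL2 draw neutrophils through CXCR2, CXCL8 also through CXCR1, and CCL2 draws monocytes through CCR2. Epithelial cells can make several of these mediators, and many of the genes are classical targets of the factors NF-kB, AP-1 and C/EBP.

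The lists held between 196969 and 265193 peaks on the main chromosomes, covering 49.4 to 65.2 Mb. Peaks covered 51.7 ± 3.91 Mb in WT (SD, n = 3), 55.9 ± 3.13 Mb in KO (SD, n = 6) and 58.3 ± 5.36 Mb in rescue libraries (SD, n = 6). The deposited lists give no read counts, so read depth per library is unknown here and a stretch without a peak is only a stretch below the calling threshold. Of 8 renal epithelial marker genes, 6 had a peak within 500 bp of the start in all 15 libraries. The exceptions were PAX2, with a peak in 0 of 3 WT, 4 of 6 KO and 1 of 6 rescue libraries, and CDH1, with a peak in 3, 1 and 0 of them. Of 6 leukocyte markers, 4 had a start site peak in none of the libraries, including the pan-leukocyte gene PTPRC, while LYZ had one in 2 and CD14 in 13 (3 WT, 4 KO and 6 rescue). Of 3 fibroblast markers, THY1 had none, COL1A1 had one in 2 KO libraries, and DCN had one in 0 of 3 WT, 6 of 6 KO and 1 of 6 rescue libraries. Of 3 endothelial markers, PECAM1 and VWF had none and CDH5 had one in 5 of 6 rescue libraries and no other. CDH1, DCN and CDH5 thus moved with the groups compared below, and their part in the results was not tested.

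The sequences below, in hg38, are of sites whose peaks were present in every library of one state and absent from another, shown so that these sites can be read. They are not the only sites that changed, and the CCL2 site changed against the direction of its window. Capitals mark matches to 4 motifs searched on both strands: the NF-kB decamer, AP-1 (TGANTCA), C/EBP (TTGCNNAA) and the octamer (ATGCAAAT). Only full matches to these patterns were marked, so a lower-case stretch can still hold a variant site. The first is the 300 bp around a stretch upstream of CCL2 that held a peak in WT libraries alone (chr17:34254733-34255032, plus strand). The second, in the body of CXCL2, held a peak in every WT and KO library and in no rescue library (chr4:74097773-74098072, plus strand). The last lies 24.07 kb downstream of the start of IL1B and held a peak in every library except WT (chr2:112812593-112812892, plus strand). IL1B downstream was chosen after its values were seen.
CCL2 upstream: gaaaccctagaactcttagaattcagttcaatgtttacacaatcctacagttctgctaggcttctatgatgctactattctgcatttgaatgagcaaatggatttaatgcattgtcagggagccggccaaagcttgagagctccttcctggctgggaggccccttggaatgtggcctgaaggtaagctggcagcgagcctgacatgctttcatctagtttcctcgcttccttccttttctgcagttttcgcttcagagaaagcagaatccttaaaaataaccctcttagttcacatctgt
CXCL2 gene body: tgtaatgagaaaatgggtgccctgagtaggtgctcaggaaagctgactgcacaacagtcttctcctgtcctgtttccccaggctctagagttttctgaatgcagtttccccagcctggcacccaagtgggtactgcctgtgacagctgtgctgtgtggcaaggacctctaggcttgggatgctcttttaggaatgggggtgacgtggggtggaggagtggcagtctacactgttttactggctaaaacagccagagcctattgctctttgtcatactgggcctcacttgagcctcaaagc
IL1B downstream: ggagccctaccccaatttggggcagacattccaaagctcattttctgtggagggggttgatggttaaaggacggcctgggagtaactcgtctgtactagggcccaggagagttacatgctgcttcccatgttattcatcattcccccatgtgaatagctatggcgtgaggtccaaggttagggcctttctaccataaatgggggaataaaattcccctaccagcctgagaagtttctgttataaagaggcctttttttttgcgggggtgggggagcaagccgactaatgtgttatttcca

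These 3 windows held no match to any of the motifs. Among the 300 bp windows at the centres of all 295008 consensus regions, defined as merged peaks found in at least 2 libraries, 6.90% held the NF-kB decamer, 31.7% AP-1, 15% C/EBP and 2.03% the octamer. Promoter sequences of 7 members were in the RefSeq table (GRCh38.p14), and those of LIF, IL7 and CCL2 were not. In the 250 bases upstream of the start, the NF-kB decamer was found in 3 of the 7 (IL6, CXCL1 and CXCL2), AP-1 in 3 (IL11, IL1A and CXCL8), C/EBP in 3 (IL6, IL1B and CXCL2) and the octamer in IL1B. The shares over all 35116 promoters of the table were 5.21%, 6.57%, 9.05% and 1.63%. A member not listed for a motif held no full match to the pattern, which does not show that it lacks such a site. The promoters of 3 members whose loci differed between groups are shown 5′ to 3′ on the strand of the gene, without bases that GENCODE counts as UTR. They are IL1B (chr2:112836817-112837029, minus strand), CXCL8 (chr4:73740319-73740518, plus strand) and CXCL2 (chr4:74099196-74099445, minus strand). In CXCL2 the NF-kB decamer matched from 78 to 69 bases before the start and again on the other strand 1 base further on, so both matches lie in 1 run of capitals.
IL1B promoter: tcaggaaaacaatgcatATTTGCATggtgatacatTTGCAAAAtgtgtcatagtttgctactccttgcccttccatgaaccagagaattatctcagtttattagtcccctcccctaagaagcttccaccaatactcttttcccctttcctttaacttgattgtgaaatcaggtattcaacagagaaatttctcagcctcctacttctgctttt
CXCL8 promoter: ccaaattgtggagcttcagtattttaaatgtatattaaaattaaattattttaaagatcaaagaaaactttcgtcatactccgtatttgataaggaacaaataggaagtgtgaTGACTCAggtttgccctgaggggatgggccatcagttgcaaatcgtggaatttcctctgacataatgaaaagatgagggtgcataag
CXCL2 promoter: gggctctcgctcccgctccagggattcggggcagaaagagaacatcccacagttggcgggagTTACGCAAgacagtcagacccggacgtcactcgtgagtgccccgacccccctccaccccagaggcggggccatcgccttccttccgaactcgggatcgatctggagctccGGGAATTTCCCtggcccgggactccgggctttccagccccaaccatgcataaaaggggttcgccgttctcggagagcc

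All 10 loci held peaks in all 15 libraries. Per length of window, LIF was the most covered and the long IL7 window the least. Peaks lay over 11.3% of the LIF window on average over the libraries, 9.39% at CXCL2, 9.37% at IL11, 9.15% at CCL2, 9.05% at CXCL1, 7.68% at CXCL8, 6.97% at IL1B, 6.25% at IL6, 4.78% at IL1A and 2.11% at IL7. The windows held 173 merged regions, of which 156 were consensus regions and 65 held a peak in all 15 libraries. That was 41.7% of the consensus regions of the windows, beside 35.6% of all consensus regions. Other protein-coding genes lay in or reached into 8 windows, among them OSM at LIF, CCL7 at CCL2, PF4V1 at CXCL1 and 7 genes at IL11, so a value describes a neighbourhood and not a single gene.

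To ask whether the loci changed with the loss of SETD2, bases under peaks per window were compared between KO and WT. CCL2 and IL1B had more bases under peaks in KO and CXCL2 had fewer, and the other 7 members did not pass the test. When SETD2 was expressed again, IL11, IL6 and IL1B had more bases under peaks than in KO, and CXCL8, CXCL2 and CCL2 had fewer. So 2 members were higher and 1 lower in KO than in WT, where 16.1% and 13.9% of all 19243 windows tested were called (limma, adjusted p under 0.05), and 3 were higher and 3 lower in rescue than in KO, where 31.0% and 7.20% of all windows were called. Between rescue and WT, 3 members were higher and 2 lower, where 24.0% and 4.06% of all windows were called. These comparisons share libraries, since the KO libraries enter both KO against WT and rescue against KO. Whether the counts at the members depart from these shares was not tested. The median log2 difference over the 10 members was -0.0036 for KO against WT, 0.01 for rescue against KO and 0.06 for rescue against WT, beside -0.0074, 0.10 and 0.10 over all windows. Relative to the median of all windows, rescue against KO was 0.25 at IL11, 0.14 at IL6 and 0.14 at IL1B. It was -0.54 at CXCL8, -0.53 at CXCL2 and -0.26 at CCL2. Leaving out 1 library moved the number higher in KO to 1 (without WT replicate 2 or 3), the number lower in KO to 0 (without WT replicate 1 or KO2 replicate 2) or 2 (without KO2 replicate 3 or Rescue2 replicate 3), and the number lower in rescue than in WT to 1 (without WT replicate 1 or 3 or Rescue1 replicate 1).

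**Figure D1:**
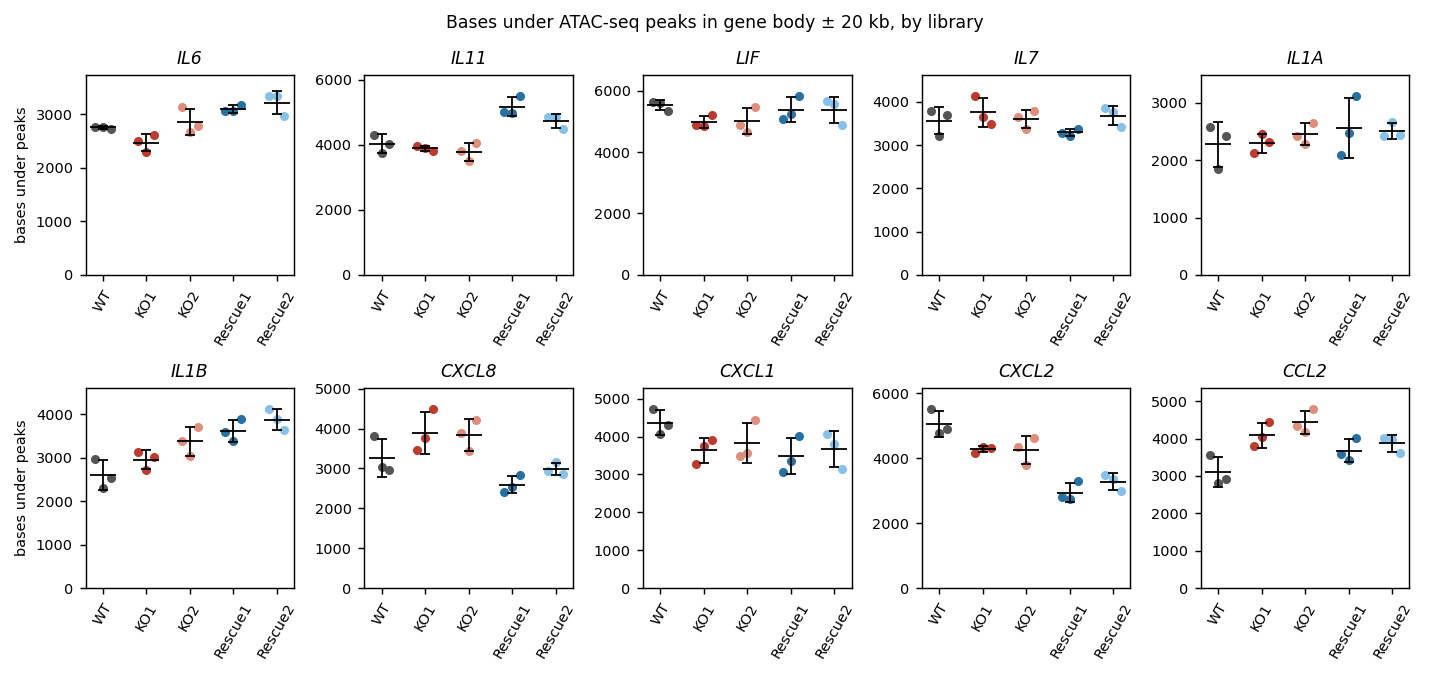
Bases under called peaks in the gene body plus 20 kb on each side for each of the 10 loci (y axis, bases, from 0), by group on the x axis. Points are libraries, and the bar with whiskers is the mean and SD of the 3 libraries of a group; at CXCL2 the rescue libraries, from 2730 to 3483, lay under all KO libraries, from 3790 to 4621, and these under all WT libraries, from 4775 to 5499.

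**Figure D2:**
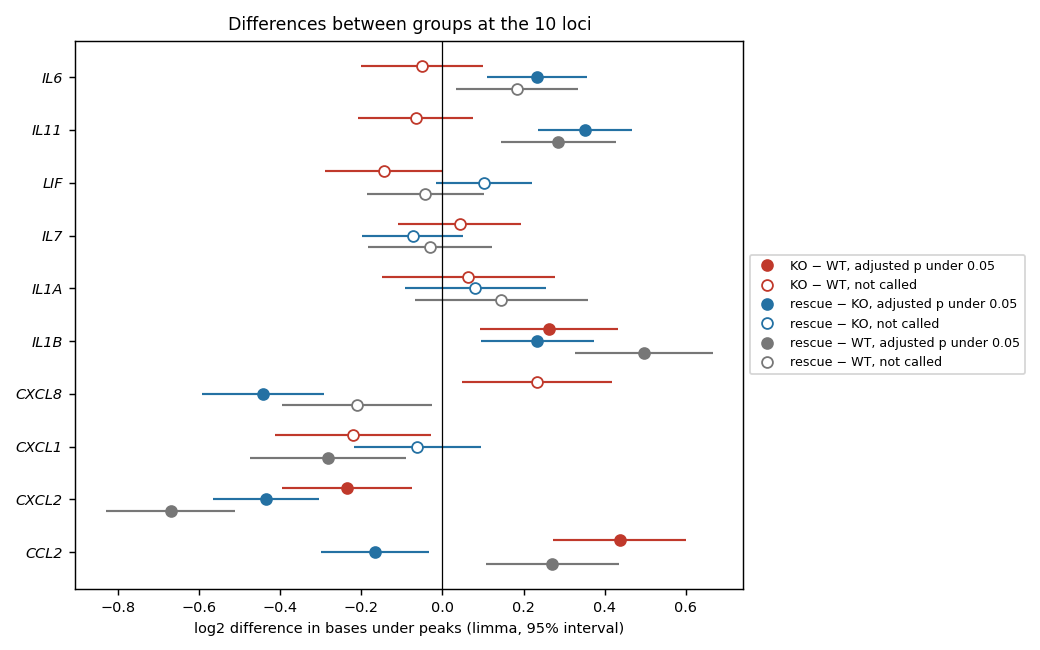
Log2 difference in bases under peaks (x axis) at each locus for KO against WT, rescue against KO and rescue against WT, from limma with 95% intervals as lines. Filled points passed an adjusted p of 0.05; the differences between rescue and KO ran from -0.44 at CXCL8 to 0.35 at IL11, while LIF, IL7 and IL1A have open points throughout.

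Scaling each library to the same total length under peaks moved the median of all windows from -0.0074 to -0.11 for KO against WT, and the calls from 3097 higher and 2676 lower to 2842 higher and 8440 lower. With lists of equal size they were 2461 higher and 3922 lower. For rescue against KO the calls were 5964 higher and 1386 lower as deposited and 6026 and 2818 when scaled. For rescue against WT they went from 4624 higher and 782 lower to 3099 and 1432 with equal lists and to 2940 and 5637 when scaled. The scaled log2 differences in KO against WT were 0.33 at CCL2, 0.16 at IL1B and -0.34 at CXCL2. Each was past the threshold in the same direction as before. Relative to the scaled median of all windows they were 0.44, 0.27 and -0.23. Subtracting that median nearly takes back the scaling, so these last values are no separate check. After scaling, 5 members were called lower in KO than in WT (IL6, IL11, LIF, CXCL1 and CXCL2), 5 lower in rescue than in KO (IL7, CXCL8, CXCL1, CXCL2 and CCL2) and 5 lower in rescue than in WT (LIF, IL7, CXCL8, CXCL1 and CXCL2).

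Among the cytokines of the IL-6 family, IL6 lies on chromosome 7 (hg38, chr7:22725884-22732002, plus strand) and encodes a cytokine of the acute phase response; STEAP1B reaches into its window. WT libraries had 2766, 2764 and 2732 bases under peaks in its window, KO libraries ranged from 2305 to 3132 with a median of 2639, and rescue libraries ranged from 2977 to 3342 with a median of 3121.5. The rescue libraries lay above all WT libraries and overlapped the KO libraries. Rescue exceeded KO by a log2 difference of 0.23 ± 0.06 (SE, limma adjusted p = 0.00294), KO and WT differed by -0.05 ± 0.07 (adjusted p = 0.66), and rescue against WT gave 0.18 ± 0.07 (adjusted p = 0.0602, or 0.0187 without Rescue2 replicate 3). The rescue difference was not called with a flank of 5 kb (0.10, adjusted p = 0.195), with a flank of 50 kb (0.15, adjusted p = 0.0577) or against KO2 alone (0.14, adjusted p = 0.179). A small region 2.67 kb upstream of the annotated start (chr7:22723123-22723300) held a peak in 0 of 3 WT, 5 of 6 KO and 6 of 6 rescue libraries. The gene body itself, not tested, was covered by 1513 ± 62.6 bases in WT, 1445 ± 125 in KO and 1447 ± 98.3 in the rescue state (SD over 3, 6 and 6 libraries).

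IL11, a gp130 cytokine known in stromal and fibrotic settings (chr19:55364382-55370463, minus strand), had the largest increase from KO to rescue among the members, while IL1B had the largest from WT to rescue. WT libraries had 4310, 3731 and 4037 bases under peaks, KO libraries 3496 to 4038 with a median of 3852, and rescue libraries 4494 to 5497 with a median of 4923.5. All rescue libraries lay above all KO and WT libraries, while KO and WT overlapped. Rescue exceeded KO by 0.35 ± 0.06 on the log2 scale (adjusted p = 1.77e-05) and WT by 0.29 ± 0.07 (adjusted p = 0.0026), and KO against WT was -0.07 ± 0.07 (adjusted p = 0.513). Rescue against KO was 0.54 with a flank of 5 kb, 0.30 when scaled to total length and 0.29 with equal lists. Against WT, rescue gave 0.36, 0.12 (limma adjusted p = 0.0339) and 0.28 (limma adjusted p = 0.0488) in this order. Part of the gain lay past the 3′ end of the gene. There, in chr19:55363393-55364349 (intergenic), peaks covered 160, 198 and 361 bases in WT, 0 to 152 in KO and 157 to 876 in rescue libraries. In the gene body KO had the most bases under peaks instead of the fewest, with 456 ± 104 bases in WT, 773 ± 98.1 in KO and 492 ± 128 in rescue libraries, a stretch chosen after its values were seen and given without a test.

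LIF, a gp130 cytokine that acts on stem and epithelial cells (chr22:30240453-30246759, minus strand), did not pass in any of the 3 comparisons on the bases as deposited. Its window had 5642, 5592 and 5343 bases under peaks in WT, 4647 to 5479 in KO and 4869 to 5823 in rescue libraries, and the groups overlapped. The log2 differences were -0.14 ± 0.07 for KO against WT (adjusted p = 0.132), 0.10 ± 0.06 for rescue against KO (adjusted p = 0.167, or 0.0412 without Rescue2 replicate 3) and -0.04 ± 0.07 for rescue against WT (adjusted p = 0.717). KO against WT was called lower when libraries were scaled to total length (adjusted p = 1.48e-05) and with equal lists (adjusted p = 0.00513). Although its window was the most covered per length, a peak within 500 bp of the LIF start was called in 5 libraries (3 of KO2 and 1 of each rescue clone), and the gene body held peaks in 1 library.

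IL7, the lymphocyte growth factor (chr8:78675743-78805523, minus strand), also did not pass on the bases as deposited. Its window had 3799, 3212 and 3697 bases under peaks in WT, 3377 to 4137 in KO and 3223 to 3848 in rescue libraries, and the groups overlapped. The differences were 0.04 ± 0.07, -0.07 ± 0.06 and -0.03 ± 0.07 in the order of the comparisons above (adjusted p = 0.718, 0.354 and 0.806), and the first turned negative when scaled (-0.06), with equal lists (-0.02) and with a flank of 50 kb (-0.07).

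The IL-1 genes lie side by side on chromosome 2, IL1A at chr2:112773925-112784493 and IL1B at chr2:112829751-112836816, both on the minus strand, with windows that do not overlap. IL1A had 2583, 1838 and 2414 bases under peaks in WT, 2120 to 2656 in KO and 2090 to 3118 in rescue libraries. The groups overlapped and no comparison passed (log2 differences 0.06 ± 0.10, 0.08 ± 0.08 and 0.15 ± 0.10, adjusted p = 0.692, 0.466 and 0.318). The sign of the first difference turned negative with a flank of 5 kb and after scaling.

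IL1B was higher in KO than in WT and higher again in rescue than in KO. WT libraries had 2975, 2306 and 2527 bases under peaks, KO libraries 2713 to 3705 with a median of 3075, and rescue libraries 3374 to 4108 with a median of 3755. Rescue libraries lay above all WT libraries, and KO libraries overlapped both. KO exceeded WT by 0.26 ± 0.08 on the log2 scale (adjusted p = 0.0167), rescue exceeded KO by 0.23 ± 0.07 (adjusted p = 0.00799) and rescue exceeded WT by 0.50 ± 0.08 (adjusted p = 5.40e-05). The first of these was not called without WT replicate 2 (0.19, adjusted p = 0.157), without WT replicate 3 (0.25, adjusted p = 0.0685), for KO1 alone (0.17, adjusted p = 0.199), or with a flank of 5 kb (0.17, adjusted p = 0.197) or 50 kb (0.18, adjusted p = 0.0608). Equal lists gave 0.41 and scaling 0.16, both called. The second was not called with a flank of 5 kb (0.11, adjusted p = 0.29), against KO2 alone (0.14, adjusted p = 0.213) or for Rescue1 alone (0.19, adjusted p = 0.109).

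Within the IL1B window, the peak at the start (chr2:112836589-112837110, which spans the promoter shown above) covered 239, 200 and 225 bases in WT, 371 to 470 in KO and 406 to 477 in rescue libraries. It was narrower in every WT library than in any other. A region 24.07 kb downstream of the start (chr2:112812420-112813065, intergenic) held 0 bases in WT, 334 to 527 in KO and 280 to 447 in rescue libraries, and its neighbour on the far side was called in all 15. The sequence of its centre is given above as IL1B downstream.

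The CXC chemokines sit in 1 cluster on chromosome 4. CXCL8 (chr4:73740519-73743716, plus strand), the neutrophil attractant interleukin 8, had 3808, 3042 and 2952 bases under peaks in WT. KO libraries had 3429 to 4481 with a median of 3815.5, and rescue libraries 2420 to 3158 with a median of 2850.5. All rescue libraries lay below all KO libraries, and both groups overlapped WT. Rescue was lower than KO by a log2 difference of -0.44 ± 0.07 (adjusted p = 2.99e-05), with -0.25 at a flank of 50 kb. KO against WT was 0.23 ± 0.09 (adjusted p = 0.0512). That value passed without WT replicate 1 (adjusted p = 0.00818), KO1 replicate 1 (0.0285), KO2 replicate 2 (0.0256) or Rescue2 replicate 3 (0.0378), and its sign turned with a flank of 5 kb (-0.16) and with equal lists (-0.07). Rescue against WT was -0.21 ± 0.09 (adjusted p = 0.0835), and -0.70 (adjusted p = 0.000661) with a flank of 5 kb.

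Part of the difference at CXCL8 lay in the gene body. Peaks inside the gene body covered 738, 654 and 516 bases in WT, 479 to 1004 in KO and 216 to 293 in rescue libraries. Rescue libraries were below every WT and KO library, while the 1 kb around the start was covered by 300 to 365 bases in rescue and 280 to 370 bases in KO libraries. A region over the UTR (chr4:73742887-73743119) held a peak in 3 of 3 WT, 5 of 6 KO and 0 of 6 rescue libraries. Another over a coding exon and UTR (chr4:73741331-73741716) was occupied in 5 KO libraries and in none of the WT and rescue libraries.

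CXCL1 (chr4:73869393-73871308, plus strand) had 4719, 4076 and 4308 bases under peaks in WT, 3270 to 4428 in KO and 3078 to 4061 in rescue libraries. Rescue libraries lay below all WT libraries, and KO overlapped both. Rescue was lower than WT by -0.28 ± 0.09 on the log2 scale (adjusted p = 0.0245), KO against WT was -0.22 ± 0.09 (adjusted p = 0.0758), and rescue against KO was -0.06 ± 0.08 (adjusted p = 0.547). The first call was lost without WT replicate 1 (adjusted p = 0.103), WT replicate 3 (0.0705) or Rescue1 replicate 1 (0.0644), for Rescue2 alone (0.0858), with no filter (0.0726) and with a flank of 50 kb (-0.09, adjusted p = 0.392). It was -0.46 with equal lists and -0.45 when scaled. KO against WT passed without KO2 replicate 3 (adjusted p = 0.0227) or Rescue2 replicate 3 (0.041), with equal lists (0.00387) and when scaled (2.57e-05), and had the opposite sign with a flank of 50 kb (0.13). In the gene body, peaks covered 432 ± 155 bases in WT, 716 ± 94.8 in KO and 340 ± 91.6 in the rescue state (SD over 3, 6 and 6 libraries), a stretch chosen after its values were seen and not tested.

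CXCL2 (chr4:74097040-74099196, minus strand), a neutrophil attractant closely related to CXCL1, had the largest difference of any member between rescue and WT. WT libraries had 5499, 4775 and 4879 bases under peaks, KO libraries 3790 to 4621 with a median of 4318, and rescue libraries 2730 to 3483 with a median of 3138.5. The groups did not overlap in any pairing: every KO library was below every WT library and every rescue library below every KO library. The log2 difference was -0.24 ± 0.08 for KO against WT (adjusted p = 0.0225), -0.43 ± 0.06 for rescue against KO (adjusted p = 5.48e-06) and -0.67 ± 0.08 for rescue against WT (adjusted p = 2.74e-07). With a flank of 5 kb the last pair were -0.93 and -1.20. KO against WT was not called without WT replicate 1 (-0.18, adjusted p = 0.136) or KO2 replicate 2 (-0.20, adjusted p = 0.0558), with equal lists (-0.17, adjusted p = 0.163), or for KO1 (adjusted p = 0.0598) or KO2 (adjusted p = 0.0519) alone.

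Of the CXCL2 stretches, the start peak was kept in all 15 libraries, with 610 to 782 bases in WT, 682 to 939 in KO and 516 to 770 in rescue libraries. The gene body region chr4:74097627-74098218, which spans a coding exon and UTR, was covered by 464, 564 and 483 bases in WT, 416 to 521 in KO and 0 bases in all 6 rescue libraries. KO and WT overlapped at both stretches. With a flank of 5 kb KO was still called lower than WT (-0.27, limma adjusted p = 0.0394). How much any stretch adds to the lower KO values of the window was not tested. The sequence of the centre of the gene body region is given above.

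**Figure D3:**
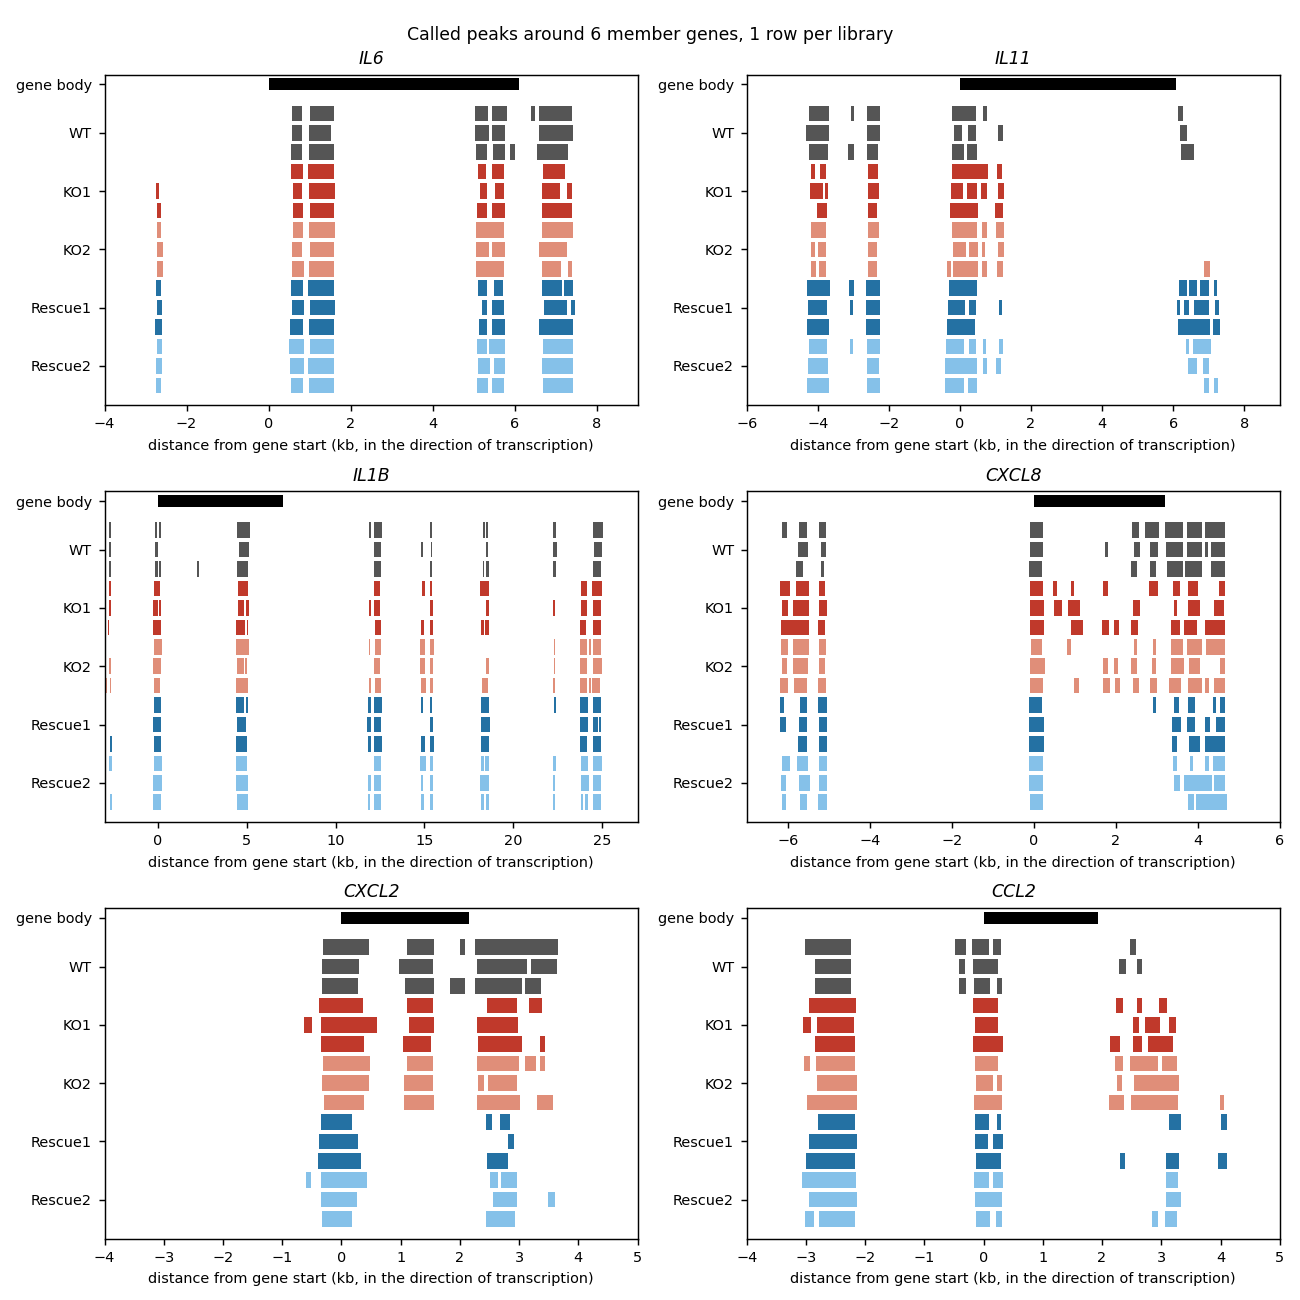
Called peaks around IL6, IL11, IL1B, CXCL8, CXCL2 and CCL2, with distance from the gene start in kb in the direction of transcription on the x axis and 1 row per library, grouped as WT, KO1, KO2, Rescue1 and Rescue2; the black bar is the gene body. At CXCL2 the peak over the gene body is present in all 9 WT and KO rows and in 0 of the 6 rescue rows, and at IL1B the peak near 24.07 kb is missing in the WT rows alone.

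CCL2 (chr17:34255274-34257208, plus strand), the monocyte attractant MCP-1, had the largest increase of any member in KO over WT. WT libraries had 3556, 2824 and 2931 bases under peaks, KO libraries 3789 to 4783 with a median of 4267.5, and rescue libraries 3439 to 4014 with a median of 3798.5. Every KO library was above every WT library, and rescue libraries overlapped both. KO exceeded WT by a log2 difference of 0.44 ± 0.08 (adjusted p = 0.000113), a call that held under all 26 refitted alternatives with values between 0.33 and 0.53. Rescue was lower than KO by -0.17 ± 0.06 (adjusted p = 0.0451), which was -0.36 with a flank of 5 kb. This call was lost on leaving out any 1 of 9 libraries (KO1 replicates 2 and 3, KO2 replicates 1 and 3, Rescue1 replicates 1 and 2, and Rescue2 replicates 1, 2 and 3), with adjusted p from 0.0513 to 0.128. It was also lost with a flank of 50 kb (-0.14, adjusted p = 0.0784), with equal lists (-0.09, adjusted p = 0.349), with no filter (adjusted p = 0.0634), with the replicate block (adjusted p = 0.0553), against KO1 alone (adjusted p = 0.314) and for Rescue1 (adjusted p = 0.0667) or Rescue2 alone (adjusted p = 0.198), so that 12 of 28 alternatives called it. Rescue exceeded WT by 0.27 ± 0.08 (adjusted p = 0.012), but not with a flank of 5 kb (0.12, adjusted p = 0.454), when scaled (0.11, adjusted p = 0.0706), for Rescue1 alone (adjusted p = 0.0768) or without WT replicate 2 (adjusted p = 0.119) or 3 (adjusted p = 0.0836).

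Part of the extra bases of KO at CCL2 lay downstream of the gene, while a site upstream was lost. In chr17:34257741-34258608 (intergenic, 2.9 kb past the start) peaks covered 102, 81 and 0 bases in WT, 222 to 796 in KO and 0 to 289 in rescue libraries. KO2 libraries, with 739 to 796 bases, were above those of KO1, with 222 to 566. The short region chr17:34254793-34254972, 0.39 kb upstream of the start, was covered by 180, 99 and 113 bases in WT and by 0 in every KO and rescue library. The peak over the start itself was called in all 15 libraries.

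In bases under peaks, groups did not overlap at 2 members between KO and WT, CCL2 higher and CXCL2 lower, where 13.4% and 12% of all windows were separated in those directions. Between rescue and KO they did not overlap at IL11 in the higher and at CXCL8 and CXCL2 in the lower direction, beside 11.3% and 2.81% of all windows. Between rescue and WT they did not overlap at IL6, IL11 and IL1B in the higher and at CXCL1 and CXCL2 in the lower direction, beside 17.3% and 2.84%. For groups that do not overlap, a two-sided exact permutation test always gives the smallest p the libraries allow. That was 0.0238 with 3 WT libraries and 0.00216 between 6 and 6, both unadjusted. The test is therefore no separate check of these loci.

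A region was called gained where every library of the first-named state had a peak in it and no library of the other did, and lost in the reverse case. In the 10 windows KO gained 2 regions and lost 4 relative to WT, or 1.28% and 2.56% of the 156 consensus regions there, beside 4.79% and 2.48% of all consensus regions. The gained regions were the one downstream of IL1B and chr19:55344574-55344808 in an exon of KMT5C, 25.8 kb from the start of IL11. The lost regions were the one upstream of CCL2, chr4:73864503-73864618 (4.83 kb upstream of CXCL1, intergenic), chr4:74079158-74079356 (19.9 kb from the CXCL2 start, intergenic) and chr8:78738697-78738858 in an IL7 intron. The CXCL1 region held a peak again in 4 of 6 rescue libraries, and the other 3 lost regions in none. Against KO, 1 region was gained and 1 lost in rescue, or 0.641% of the consensus regions each way, beside 0.910% and 1.24% of all. They were chr19:55352073-55352416 over UTRs of COX6B2 and ENSG00000267706 in the IL11 window, also called in 2 of 3 WT libraries, and the CXCL2 gene body region. No region was gained in KO and lost in rescue, or lost in KO and gained in rescue, by this rule. Leaving out KO1 replicate 2 raised the regions gained in KO to 4, and leaving out WT replicate 2 raised those lost to 7. Those gained in rescue were 2 without KO2 replicate 1 or 3 or Rescue1 replicate 2 or 3, and those lost were 2 without KO1 replicate 1, KO2 replicate 1 or 2 or Rescue1 replicate 3.

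The start site peaks were also ranked by fold enrichment among all peaks of their own library, as a percentile. IL1A had the highest rank, with medians of 88.0 in WT, 81.0 in KO and 89.4 in rescue libraries, and LIF the lowest, under 1.27 wherever it had a peak. CXCL8 ranked between 1.96 and 8.93 in WT and between 1.72 and 4.58 in KO libraries, but between 47.5 and 59.7 in rescue libraries. CXCL2 ranked between 6.71 and 11.1 in WT, 19.8 and 28.2 in KO and 49.5 and 66.9 in rescue libraries. For both genes the rescue libraries were above all others, in the group in which the gene body had fewer bases under peaks. Not all members followed this pattern. IL11 ranked 34.4 to 44.1 in KO, above 13.6 to 18.8 in WT and 14.9 to 33.7 in rescue libraries. CCL2 ranked 31.0 to 38.6 in WT, above 7.54 to 30.6 in KO, and 15.9 to 38.3 in rescue libraries, although its window had more bases under peaks in KO than in WT. Ranked by q, the medians were closer, 43.3 in WT, 48.3 in KO and 76.1 in rescue libraries for CXCL8, and 64.1, 74.2 and 75.4 for CXCL2. At CXCL2 the ranks by q overlapped between KO (70.2 to 75.1) and rescue (74.3 to 86.0). They also overlapped between KO and rescue at IL11 and between KO and WT at CCL2. Fold enrichment is taken over a local background, which can include the neighbouring peaks, and its part in these ranks was not tested. At IL6 no peak lay within 500 bp of the annotated gene start. At the start of its canonical transcript (position 22727200), chosen after the data were seen, the ranks were 3.76 to 11.1 in WT, 13.1 to 25.5 in KO and 32.0 to 37.2 in rescue libraries. By q they were 50.2 to 64.0, 62.7 to 74.6 and 67.1 to 70.5, and KO overlapped both other states.

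**Figure D4:**
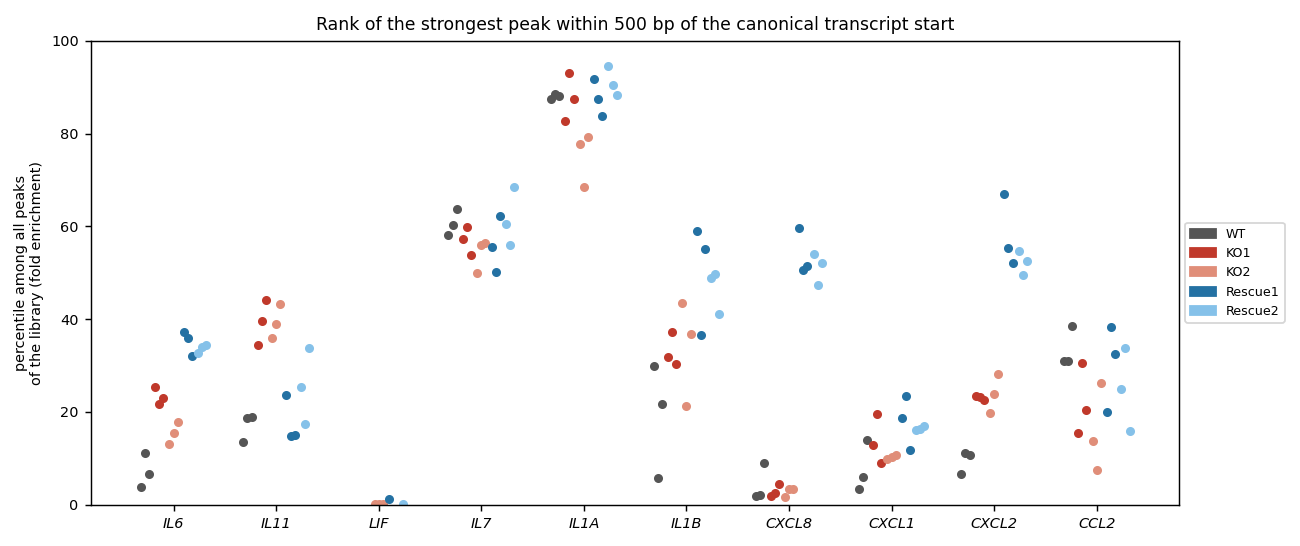
Percentile of the strongest peak within 500 bp of the canonical transcript start among all peaks of the same library, by fold enrichment (y axis, 0 to 100), for each member on the x axis; each point is a library and colours are groups. For CXCL8 the rescue points lie between 47.5 and 59.7 and the WT and KO points at 8.93 at most, and LIF has points in 5 libraries.

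The clones of a state were also compared with each other at these loci. No member was called between KO1 and KO2 by limma, where 3.24% of all windows were called (largest log2 difference 0.20, lowest adjusted p = 0.305, 1 member with an unadjusted p under 0.05, IL6 with KO1 lower). No member was called between Rescue1 and Rescue2, where 4.27% of all windows were called (largest log2 difference 0.19, lowest adjusted p = 0.359, 0 members with an unadjusted p under 0.05). These intervals do not show that the clones were alike: for CXCL8 the 95% interval of Rescue1 against Rescue2 ran from -0.40 to 0.02. Single regions inside the windows did differ between clones, as downstream of CCL2. In an IL7 intron, chr8:78724717-78724875 held a peak in 3 KO1 and 0 KO2 libraries. In the IL11 window, chr19:55355713-55355919 held one in 3 Rescue1 and 0 Rescue2 libraries.

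Around these loci, 23 other cytokine and chemokine genes were tested in the same fit. Over all windows, 16.1% were called higher and 13.9% lower in KO than in WT. The shares were 31.0% and 7.20% for rescue against KO, and 24.0% and 4.06% for rescue against WT. Whether the counts below depart from these shares was not tested. In KO against WT 6 were higher and 4 lower, with a median log2 difference of -0.0025, and the largest were CXCL12 at 1.26 ± 0.12, CXCL11 at 0.63 ± 0.09 and CCL7 at 0.55 ± 0.10 in the higher direction and CCL5 at -0.66 ± 0.10, IL32 at -0.47 ± 0.08 and IL1RN at -0.35 ± 0.13 in the lower. CXCL12 draws lymphocytes and progenitor cells, IL1RN encodes the antagonist of the IL-1 receptor, and the window of CCL7 overlaps that of CCL2. In rescue against KO 5 were higher and 4 lower, with a median of 0.07. IL1RN at 0.67 ± 0.11, CCL5 at 0.47 ± 0.08 and IL32 at 0.30 ± 0.06 led the higher direction, and CXCL12 at -1.25 ± 0.09, CXCL10 at -0.39 ± 0.08 and CXCL11 at -0.26 ± 0.07 the lower. CXCL12 differed between Rescue1 and Rescue2 by -0.88 ± 0.13 (adjusted p = 0.000128), and CCL5 and IL1RN between KO1 and KO2 by -0.75 ± 0.11 and -0.83 ± 0.15 (adjusted p = 6.98e-05 and 0.00104). In rescue against WT 5 were higher, led by IL33 at 0.65 ± 0.11, CSF3 at 0.41 ± 0.10 and CXCL11 at 0.37 ± 0.09, and CXCL3 was lower at -0.35 ± 0.09.

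Among 12 receptor genes for the members, 2 were higher in KO than in WT, CCR2, the CCL2 receptor, by 0.63 ± 0.10 and IL1R1 by 0.22 ± 0.07. In rescue 1 was higher than in KO, IL2RG, the subunit that IL-7 shares with other cytokines, by 0.43 ± 0.10. Against WT 3 were higher in rescue: CCR2 by 0.63 ± 0.10, IL2RG by 0.47 ± 0.12 and IL7R by 0.23 ± 0.07. None was lower by limma in these 3 comparisons, and 0 were lower at an unadjusted p under 0.05. Of all windows, 13.9%, 7.20% and 4.06% were called lower in this order, and 16.1%, 31.0% and 24.0% higher. Whether the receptor counts depart from these shares was not tested. The median log2 differences of the receptors were 0.10, 0.09 and 0.17.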

How the data were processed

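ATAC-seq libraries were made by the study with a Nextera kit. Reads were aligned to hg38 by the authors with BWA (0.7.17 in the submitters' processing notes) and each library had its own MACS2 2.2.7.1 peak list. The notes also name DiffBind 2.14.0, whose read counts were not used here. Each deposited list gives intervals, the fold enrichment of the summit as a ratio, and the −log10 p and −log10 q. Control tracks and removal of duplicates are not given in the sources used here. All 99 contigs of the lists were in the reference, with 0 peaks beyond an end.

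Bases under peaks were summed over gene body ± 20 kb for 19970 protein-coding genes (GENCODE v44, main chromosomes), and log2(bases + 200) of the 19243 windows with a mean of at least 100 bases was fitted over all 15 libraries by clone group with limma 3.58.1 (trend, R 4.3.3), with Benjamini-Hochberg adjustment over all windows. A log2 difference on this scale understates changes at low values. The fit was also run on simulated data with known changes in KO. Their noise was independent between libraries and held no clone or depth differences, so that run cannot speak to these. Libraries of a clone are not stated to be separate cultures, so p-values measure the spread between libraries only, which may be technical. Peaks sharing at least 1 bp were merged, and coordinates count from 1.

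All members are named. Other loci are named where the adjusted p was under 0.05, at most the 3 largest per direction. Regions are named within 500 bp of a start or where gained or lost, and others were named after their values were seen, as were the gene body values. The members and lists were chosen with earlier results of these data known. Alternatives tried were pseudocounts of 50 and 1000 bases, no filter, flanks of 5 and 50 kb, a −log10 q of at least 3, lists of the 150000 peaks with the highest q scores, scaling to total length, a replicate block, exact permutation tests, single clones and leaving out each library. Sums, merging and permutation tests used Python 3.11.15 with scipy 1.17.1. The sequence and values of 1 region near CXCL2 are not reported here.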

Additional observations from a re-analysis of the deposited data

How the results depend on the processing

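The called directions at the members did not turn under any alternative run, and CCL2 in KO against WT, IL11, CXCL8 and CXCL2 in rescue against KO, and IL11, IL1B and CXCL2 in rescue against WT were called under all of them. The 23 sign changes concerned differences that were called neither before nor after. For KO against WT they were IL6 with a flank of 50 kb (0.11) and KO2 alone (0.048), LIF with 50 kb (0.037), IL7 with 50 kb (-0.070), equal lists (-0.018), scaling (-0.065) and without WT replicate 2 (-0.028, against up to 0.087 on leaving out another library), IL1A with 5 kb (-0.026), scaling (-0.040) and without WT replicate 2 (-0.071, against up to 0.15), CXCL8 with 5 kb (-0.16) and equal lists (-0.065), and CXCL1 with 50 kb (0.13). For rescue against KO they were IL7 in Rescue2 alone (0.0015), and with equal lists IL1A (-0.029) and CXCL1 (0.0039). For rescue against WT they were IL6 with 5 kb (-0.0085), LIF with 5 kb (0.0034) and 50 kb (0.085), IL7 in Rescue2 alone (0.044) and without WT replicate 1 (0.014, against down to -0.10), and IL1A with equal lists (-0.00011) and scaling (-0.012).

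The number of members higher in KO than in WT was 1 with a flank of 5 kb (14.9% of all windows at that setting) and for KO1 alone (13%). The number lower was 2 with equal lists (20.6%), 5 when scaled (43.9%), and 0 for KO1 (12.8%) or KO2 alone (9.83%). It was also 2 by the exact permutation test, run on the members alone and counted at an unadjusted p under 0.05. In rescue against KO, 1 was higher with 5 kb (25.1%) and against KO2 alone (18.8%), and 5 were lower when scaled (14.6%). In rescue against WT, 5 were higher with 50 kb (28.2%), and 1 was lower with no filter (3.81%), with 50 kb (3.38%) and for Rescue2 alone (2.13%), against 5 when scaled (29.3%). Leaving out 1 library gave 1 to 3 higher and 0 to 2 lower for KO against WT, 3 to 4 and 2 to 3 for rescue against KO, and 2 to 4 and 1 to 2 for rescue against WT.

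Looser rules and fewer libraries raise the calls among all consensus regions too, whose share follows in brackets. Regions gained in KO were 5 when at least 50 percent of a region had to lie under peaks (4.55%), 14 by majority, which lets some libraries of either state deviate (12.9%), 7 for KO1 alone (7.06%) and 5 for KO2 alone (8.34%), and with the share as before 0 with a flank of 5 kb and 7 with 50 kb. Regions lost in KO were 15 by majority (9.64%), 8 for KO1 alone (4.80%) and 8 with 50 kb. Those gained in rescue were 2 with equal lists (1.117%), 11 by majority (7.58%), 5 against KO1 alone (3.10%), 5 for Rescue1 alone (1.80%), 4 for Rescue2 alone (2.44%), 0 with 5 kb and 3 with 50 kb. Those lost in rescue were 2 with the stricter threshold (1.34%), 2 with equal lists (1.55%), 4 with the 50 percent rule (1.17%), 13 by majority (6.76%), 4 against KO1 alone (2.80%), 2 against KO2 alone (2.30%) and 2 for Rescue2 alone (1.59%). Leaving out 1 library gave 2 to 4, 4 to 7, 1 to 2 and 1 to 2 in this order. The cause of these changes was not tested.

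Same-numbered libraries of different groups did not deviate together (30 pairs, r from -0.18 to 0.05, and 5 of 15 libraries closest to their own number). For differently numbered pairs r ran from -0.12 to 0.17. The labels do not say what the numbers stand for, and these values cannot exclude a shared batch. With the replicate block, the members called were 2 higher and 1 lower in KO against WT, 3 and 2 in rescue against KO, and 3 and 2 in rescue against WT. The block ended 1 of the 14 calls, CCL2 in rescue against KO (-0.17, adjusted p = 0.0553), and over all windows it gave 2936 higher and 2488 lower for KO against WT. The lists hold no reads, so a change in accessibility within a called peak, or one below the threshold, was not detectable here, and peak number moves with a depth that is unknown.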
